A study of Mus musculus with 24 samples.

Results

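The 9 genes described here are Hoxb1 to Hoxb9, the contiguous part of the mouse Hoxb cluster, chosen by their gene names from a count table of 55487 genes. They were followed through 24 RNA-seq libraries of LSK cells (lineage-negative, Sca-1-positive, KIT-positive blood stem and progenitor cells) in 6 groups of 4. All 8 libraries of the newborn stage, postnatal day 0 (P0), came from liver, and all 16 libraries of day 28 (P28) came from bone marrow. At P0 the groups were wild type (P0 WT) and mice in which MLL::ENL (ME), a human leukaemia fusion gene carried as a Tet-off transgene, had been induced at E10.5 of embryonic life (P0 ME). At P28 they were wild type (P28 WT), ME induced at E10.5 (ME-E10.5), ME induced at P0 (ME-P0), and a further ME group, also induced at E10.5, whose label RLT Vav Txp is not spelled out. Age and tissue changed together between the stages and cannot be told apart. The labels give the cells as LSK, while the design text of the series speaks of lineage-negative KIT-positive progenitors, and neither source used here says which cells express the transgene.

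Hox proteins are transcription factors that bind DNA through a homeodomain, and mammals carry them in 4 clusters whose gene order along the chromosome follows the order of expression along the body axis. MLL, the product of Kmt2a, keeps Hox genes active during blood formation, and MLL fusions such as MLL::ENL are known for holding the posterior Hoxa genes, above all Hoxa9 and Hoxa10, at a high level in leukaemia. The Hoxb cluster is used by normal stem cells: Hoxb4 expands blood stem cells when overexpressed, Hoxb5 marks long-term stem cells in adult mouse marrow, and Hoxb6 and Hoxb8 can immortalise or transform myeloid progenitors when forced on.

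On GRCm38 the members lie on the plus strand of chromosome 11 between 96271457 and 96368256, a span of 96.8 kb that starts with Hoxb9 and ends with Hoxb1 (GENCODE M21 annotation, all protein-coding). The homeobox, 180 bases that code for the homeodomain, was read from the GENCODE transcripts and is shown for Hoxb6, the called member with the largest fold change, as an example of the sequence that was counted. Capitals mark the 18 bases that code for the core of the third helix, which lies in the DNA groove.
Hoxb6: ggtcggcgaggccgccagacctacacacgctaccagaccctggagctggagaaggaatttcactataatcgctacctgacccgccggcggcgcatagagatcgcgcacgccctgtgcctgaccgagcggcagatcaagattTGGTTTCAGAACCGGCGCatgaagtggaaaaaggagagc

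The homeobox of Hoxb6 shared 85.6% of its bases with that of Hoxa6, its paralogue of the same number in the Hoxa cluster. Over whole transcripts, the longest exact run that a member shared with a Hox gene of another cluster was 23 bases for Hoxb1 and 52 bases for Hoxb4, the shortest and the longest of the 9. How reads matching several genes were counted is not stated in the sources used here. On the opposite strand the antisense gene Hoxb3os covers 52.9% of the exonic bases of Hoxb3 and 27.3% of those of Hoxb2, and Hoxb5os covers 3.6% of those of Hoxb5. The strand setting of the counting is not stated either, so the Hoxb2 and Hoxb3 values are uncertain: sense and antisense reads cannot be told apart there.

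The libraries held between 31233688 and 89774511 counts each. A list of 4 genes of the sorted population (Kit, Ly6a, Cd34 and Flt3) was detected in each group. Of these only Kit and Ly6a, which codes for Sca-1, belong to the definition of LSK cells. Summed levels of the 4 were 3233 to 3917 CPM (counts scaled to library size with TMM factors) in the libraries of P28 WT and of both other ME groups of P28. They were 1212 to 2209 CPM in RLT Vav Txp and 1385 to 3561 CPM at P0. The RLT Vav Txp libraries also stood apart in a list of 8 macrophage markers, whose sum was 728.5 to 3132 CPM there and 46.3 to 105 CPM in the other P28 groups. Library 1 stood apart in both P0 groups: 6 neutrophil granule genes summed to 853.8 CPM in WT against 9089 to 14120 CPM in the other 3, and to 716.1 CPM in ME against 15340 to 27260 CPM, with macrophage and erythroid sums low in the same libraries. The 2 libraries numbered 1 differed in 6 mast cell and basophil genes. These summed to 3840 CPM in WT library 1, against 437 to 870.7 CPM in the other 3. In ME library 1 they summed to 40.63 CPM, against 204.7 to 504.3 CPM. WT library 4 of P0 had the lowest scaling factor of all libraries, 0.82. The design text calls the replicates biological without naming animals, so p-values measure the spread between these samples only. Titles of the RLT Vav Txp libraries carry codes instead of replicate numbers, so their library numbers here follow the order of listing. The codes of the first and second begin with the same number. What the codes stand for is not given, so whether these libraries are independent is not known. In bulk RNA, fewer cells of a type and less RNA per cell cannot be told apart.

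All 9 members were low in these cells, and Hoxb4 and Hoxb5 were the only ones with more than 3 counts in all 24 libraries. Mean levels over the 24 libraries were 3.35 CPM for Hoxb5, 2.16 CPM for Hoxb4, 1.48 CPM for Hoxb2, 1.05 CPM for Hoxb6, 0.567 CPM for Hoxb3, 0.402 CPM for Hoxb8, 0.204 CPM for Hoxb9, 0.131 CPM for Hoxb7 and 0.0227 CPM for Hoxb1. Hoxa9 averaged 130.4 CPM and Hoxa10 95.9 CPM. Per kilobase of exon, the scale on which genes can be compared, the mean level was 1.20 CPM for Hoxb5 and 0.842 CPM for Hoxb4, against 23.4 CPM for Hoxa9 and 29.3 CPM for Hoxa10. Hoxb1, a gene of the early hindbrain, exceeded 3 counts in 1 library, with 8 counts in RLT Vav Txp library 4, and did not enter the tests. The other 8 passed the filter on low counts.

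By median level per kilobase the order was Hoxb5, Hoxb4, Hoxb2, Hoxb6, Hoxb3, Hoxb8, Hoxb9, Hoxb7 and Hoxb1, but neighbours in this order were not well separated. Hoxb5 was above Hoxb4 in 16 of 24 libraries, Hoxb4 above Hoxb2 in 17, Hoxb2 above Hoxb6 in 11, Hoxb6 above Hoxb3 in 17 and Hoxb3 above Hoxb8 in 15. Hoxb8 was above Hoxb9 in 13 libraries, Hoxb9 above Hoxb7 in 14 and Hoxb7 above Hoxb1 in 17. The central genes Hoxb4 to Hoxb6 together gave between 34.4% and 88.7% of all Hoxb reads of a library. Replicates of the members also scattered widely: the biological coefficient of variation estimated by edgeR was 58.5% for Hoxb4, 58.7% for Hoxb5, 94.4% for Hoxb6 and 150.2% for Hoxb8, against 18.5% for Hoxa9 and a median of 50.1% over the genes tested.

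**Figure D1:**
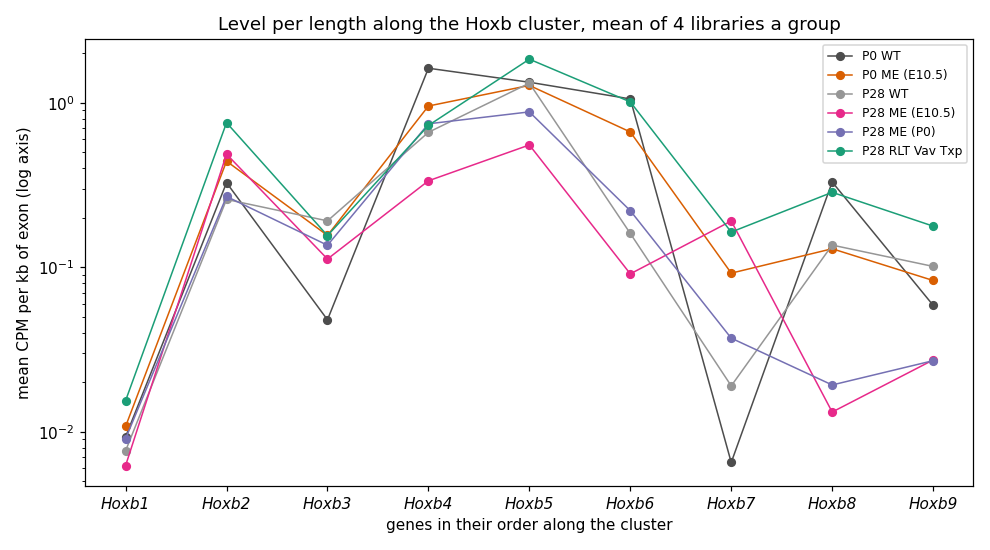
Mean level per kilobase of exon (CPM per kb, log axis) of the 9 members in their order along the cluster, 1 line for each group of 4 libraries. Hoxb5 lies at or near the top in each group, and Hoxb1 at or near the bottom. Hoxb4 lies below Hoxb2 in ME-E10.5 of P28, and below Hoxb2 and Hoxb6 in RLT Vav Txp. The lines part most at Hoxb6 to Hoxb8.

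Hoxb4, the gene best known for expanding blood stem cells, was highest in newborn liver. In P0 WT the 4 libraries had 1.97, 1.25, 2.96 and 10.47 CPM of Hoxb4, and in P0 ME they had 1.30, 4.80, 1.62 and 2.10 CPM. Library 4 of P0 WT was far above all others, and the groups overlapped. Apart from the library at 4.80 CPM, the P0 ME values lay within the range of RLT Vav Txp at P28. At P28, Hoxb4 was 0.699, 2.68, 1.44 and 1.98 CPM in WT and 0.685, 1.02, 1.13 and 0.618 CPM in ME-E10.5, the lowest group. ME-P0 had 1.55, 2.06, 2.03 and 2.01 CPM, each above every ME-E10.5 library. RLT Vav Txp had 2.19, 1.65, 2.49 and 1.15 CPM of Hoxb4, within the range of P28 WT.

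Hoxb5, the marker of long-term stem cells, had the highest mean level per kilobase of the members in 5 of the 6 groups, P0 WT being the exception. Its P0 WT libraries had 2.72, 0.845, 0.955 and 10.4 CPM, with library 4 again the highest, and the P0 ME libraries had 4.15, 4.93, 1.20 and 3.95 CPM. In P28 WT the values of Hoxb5 were 4.08, 2.84, 4.92 and 2.85 CPM, and in ME-E10.5 they were 2.18, 1.13, 1.59 and 1.28 CPM. These last 2 groups did not overlap, and ME-E10.5 was the lower one. ME-P0 lay between them with 3.33, 1.89, 3.11 and 1.49 CPM, overlapping both. The RLT Vav Txp libraries had 5.40, 6.28, 5.02 and 3.83 CPM of Hoxb5, the highest P28 group.

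Hoxb6, whose forced expression expands myeloid progenitors, showed the widest spread among groups of the 3 central genes. Its P0 WT libraries had 0.563, 1.30, 0.189 and 6.25 CPM, and those of P0 ME 0.959, 0.0844, 1.42 and 2.76 CPM. P28 WT had 0.447, 0.401, 0.0125 and 0.402 CPM of Hoxb6, where library 3 held 1 count. Levels were also low in ME-E10.5, with 0.249, 0.0791, 0.114 and 0.275 CPM, and in ME-P0, with 0.606, 0.700, 0.391 and 0.0402 CPM. RLT Vav Txp stood above these 3 groups in each of its libraries, with 1.20, 2.27, 2.76 and 1.73 CPM of Hoxb6.

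The anterior members Hoxb2 and Hoxb3 act mainly in hindbrain and cranial nerve patterning, and Hoxb3 also in stem cell proliferation beside Hoxb4. Group means of Hoxb2 ran from 0.902 ± 0.648 CPM in P28 WT to 2.64 ± 1.23 CPM in RLT Vav Txp (SD, n = 4). Those of Hoxb3 ran from 0.204 ± 0.267 CPM in P0 WT to 0.814 ± 1.16 CPM in P28 WT, with 2.52 CPM in the highest and no read in the lowest P28 WT library. The antisense gene Hoxb3os, which overlaps both, had 1.48, 2.66, 2.25 and 0.0180 CPM in the RLT Vav Txp libraries, and Hoxb3 had 0.555, 1.32, 0.720 and 0.0539 CPM in the same libraries. Library 4 was the lowest for both.

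The posterior members Hoxb7, Hoxb8 and Hoxb9 were near the limit of detection, with median counts of 2, 5 and 5 per library, and in several groups a single library carried most of the mean. Hoxb8, a gene whose activation by a viral insertion was found in a mouse myeloid leukaemia line, had 0.382, 0.325, 0 and 2.77 CPM in P0 WT. In RLT Vav Txp it had 0.0146, 0.248, 0 and 2.75 CPM, and in ME-E10.5 at P28 it had 0 to 4 counts. The highest Hoxb8 values thus came from library 4 in both groups. Hoxb9, which patterns the thoracic skeleton, also peaked in RLT Vav Txp library 4, at 1.69 CPM against at most 0.0876 CPM in the other 3. Hoxb7 held 6 to 20 counts in each RLT Vav Txp library, 0 to 2 counts in P28 WT and P0 WT, and 48 counts in ME-E10.5 library 4 of P28.

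**Figure D2:**
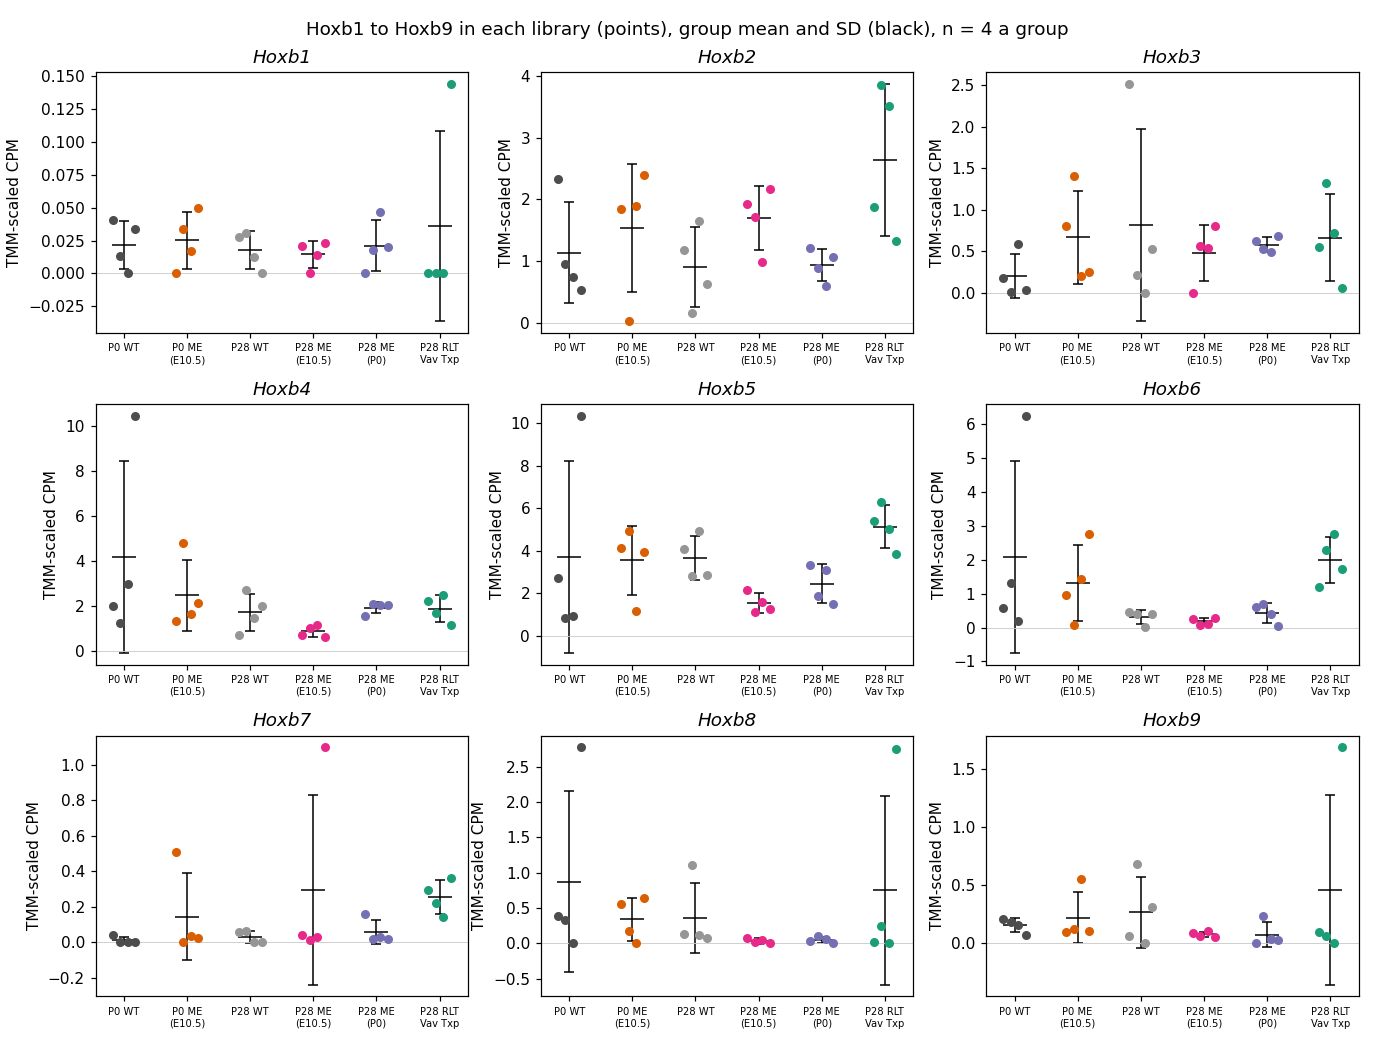
CPM of each member (vertical axes, 1 panel a gene, separate scales) in each library (points) by group, with group mean and SD in black (n = 4). P0 WT library 4 stands high for Hoxb4, Hoxb5, Hoxb6 and Hoxb8, and the 4 RLT Vav Txp libraries lie above the ME-E10.5 libraries of P28 for Hoxb5 and Hoxb6.

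Comparing ME with WT asks whether the fusion moved the Hoxb cluster as it moved the Hoxa cluster. It was tested with edgeR's quasi-likelihood test over 23059 genes, with an adjusted p (Benjamini-Hochberg) under 0.05 as the call. In newborn liver no Hoxb member was called: 0 of 8 by edgeR, where 0.642% of all genes tested were called. DESeq2 and limma voom also called 0 of 8, where they called 797 and 16 of 23059 genes. No member had an unadjusted p under 0.05. The share of all genes under that unadjusted threshold is not given here or below, so counts of members under it have no background. In the same comparison 5 of 10 Hoxa genes were called, all higher in ME: Hoxa2, Hoxa5, Hoxa7, Hoxa9 and Hoxa10. The median log2 fold change was 0.19 over the 8 Hoxb genes, 1.29 over the 10 Hoxa genes and -0.01 over all genes tested. Hoxb4 had a log2 fold change of -0.76 (standard error 0.59, 95% interval -1.98 to 0.46, edgeR adjusted p = 0.599), and Hoxb5 of -0.06 (interval -1.28 to 1.15, adjusted p = 0.978). Both signs rest on P0 WT library 4: without it the log2 fold change was 0.20 for Hoxb4 and 1.22 for Hoxb5, with adjusted p-values of 0.94 and 0.321. For Hoxa9 the log2 fold change was 1.03 (standard error 0.17, edgeR adjusted p = 0.0026). With the standard error of Hoxb4, a change of that size could have gone uncalled, so 0 of 8 does not show a lack of response.

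In bone marrow at P28, ME-E10.5 was set against WT. Again 0 of 8 Hoxb genes were called by edgeR, where 12.3% of all genes were called, and by DESeq2, which called 3738 of 23059 genes. An unadjusted edgeR p under 0.05 was found for 1 member. That gene was Hoxb5, with a log2 fold change of -1.25 (standard error 0.60, interval -2.48 to -0.01, edgeR adjusted p = 0.182). It was also the only member whose groups did not overlap, as was true of 28.2% of all genes tested. With limma voom Hoxb5 was called (log2 fold change -1.20, adjusted p = 0.0317), where 28.2% of all genes were called, and likewise with edgeR on these groups alone (-1.33, adjusted p = 0.0138), where 34% were. In this comparison 1 of 8 stem cell genes was called higher and 1 lower, and 1 of 6 mast cell and basophil genes and 1 of 3 tested megakaryocyte genes were called lower; their part in the Hoxb5 value was not tested. Its log2 fold change was between -1.43 and -1.07 in all alternatives. Hoxb4 had a log2 fold change of -0.97 (standard error 0.60, edgeR adjusted p = 0.31). The median log2 fold change was -0.89 over the 8 Hoxb genes, 0.62 over the 10 Hoxa genes and -0.10 over all genes. Hoxa5, Hoxa9 and Hoxa10 were called higher, Hoxa9 with a log2 fold change of 0.53 (standard error 0.17, edgeR adjusted p = 0.041), a call lost under 5 of the other scalings, filters or tests and without 7 of the 8 libraries.

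Induction at P0 gave no call in either cluster at P28. By edgeR, DESeq2 and limma voom 0 of 8 Hoxb genes were called, with 0 at an unadjusted p under 0.05, where 1.57% of all genes were called by edgeR. Hoxb4 had a log2 fold change of 0.17 (standard error 0.59, edgeR adjusted p = 0.91) and Hoxb5 of -0.58 (standard error 0.59, adjusted p = 0.637). The sign for Hoxb4 turned to -0.10 without P28 WT library 1. Hoxa9 had a log2 fold change of 0.47 (standard error 0.17) with an edgeR adjusted p of 0.12, and was called with limma voom, which called 21.7% of all genes, and in a fit of these groups alone, which called 27.9%.

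The RLT Vav Txp group against P28 WT also left the 8 Hoxb genes uncalled, with 0 by edgeR, DESeq2 and limma voom and 1 at an unadjusted p under 0.05, where 4.12% of all genes were called by edgeR. That gene was Hoxb6, with 1.99 ± 0.677 CPM in RLT Vav Txp and 0.316 ± 0.203 CPM in P28 WT (SD, n = 4), which gave a log2 fold change of 2.66 (standard error 1.08, interval 0.44 to 4.89, edgeR adjusted p = 0.205). For Hoxb6 and Hoxb7 the RLT Vav Txp libraries were all above the WT libraries, 2 of 8 members, where the groups of 11.5% of all genes did not overlap in either direction. All 8 macrophage markers were called higher here too, as were 2 of 3 tested megakaryocyte, 1 of 7 erythroid and 1 of 6 mast cell and basophil genes. Called lower were 2 of 4 genes of the sorted population, and of 8 stem cell genes 1 was called higher and 1 lower. The part of these lists in the Hoxb6 values was not tested. Hoxb5 had a log2 fold change of 0.48 (standard error 0.59, adjusted p = 0.808), Hoxb4 of 0.14 (standard error 0.59, adjusted p = 0.963) and Hoxb2 of 1.54 (standard error 0.80, adjusted p = 0.38). The sign for Hoxb4 turned without P28 WT library 1 (-0.12) and without RLT Vav Txp library 3 (-0.02). In the Hoxa cluster Hoxa7 and Hoxa9 were called lower, Hoxa9 with a log2 fold change of -0.70 (standard error 0.17, edgeR adjusted p = 0.016). Without P28 WT library 4, RLT Vav Txp library 3 or library 4 that adjusted p was 0.0574, 0.0503 and 0.0625. The median over the 8 Hoxb genes was 0.95, against 0.04 over the 10 Hoxa genes and 0.01 over all genes.

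**Figure D3:**
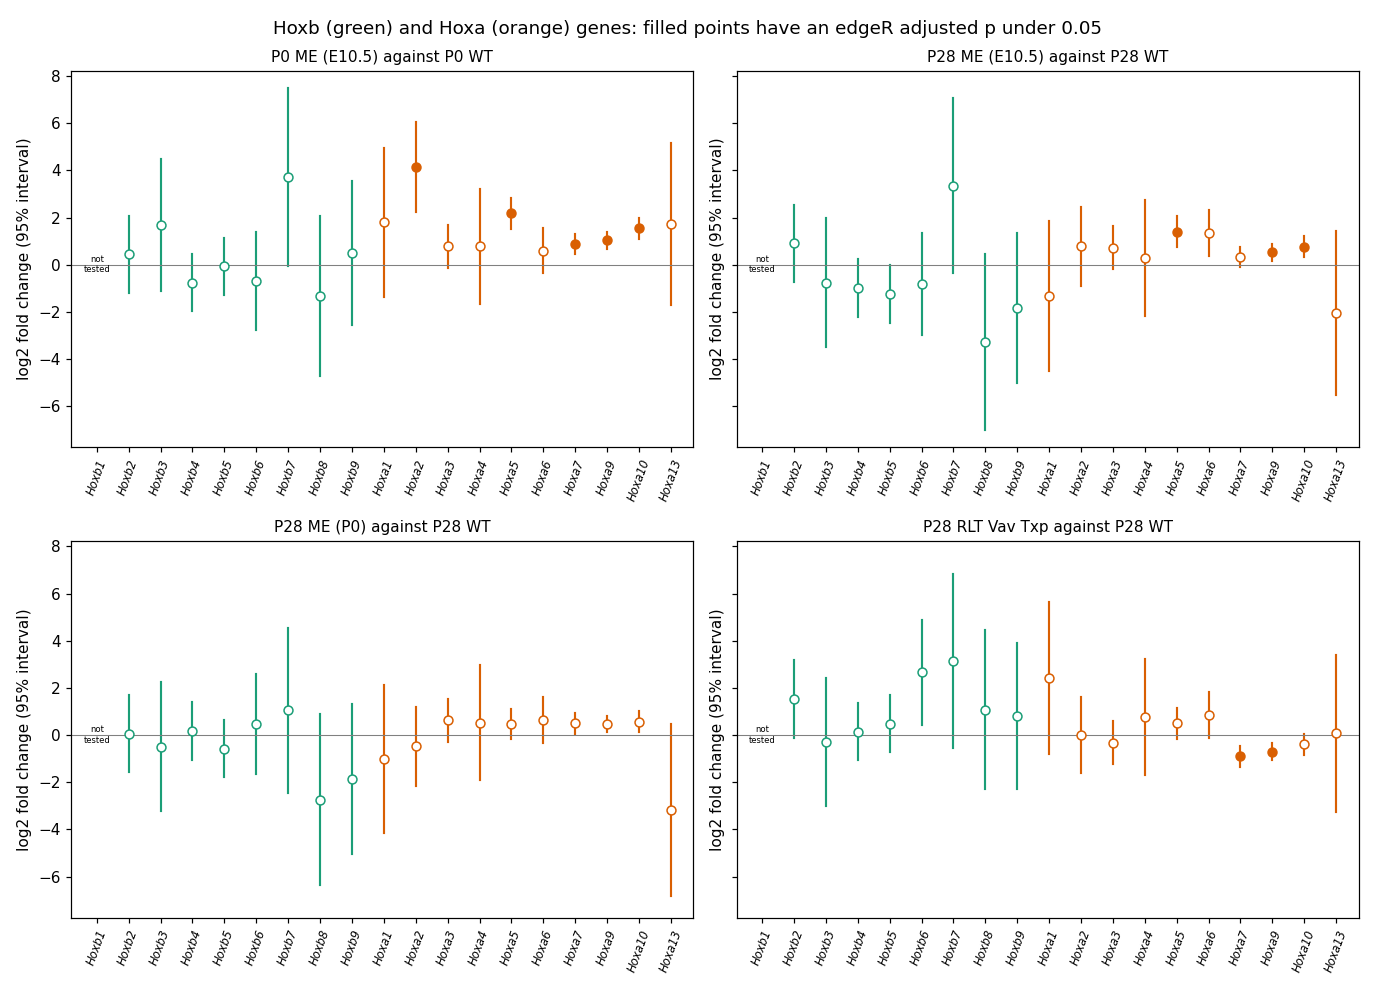
Log2 fold change (vertical axis) with its 95% interval for the Hoxb genes (green) and Hoxa genes (orange) in the 4 comparisons of ME with WT; filled points have an edgeR adjusted p under 0.05, and Hoxb1 was not tested. No Hoxb point is filled in any panel, while 5, 3, 0 and 2 Hoxa points are. The Hoxb intervals are wider than that of Hoxa9, so unfilled Hoxb points do not show a lack of change.

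The responses of 1 gene from each cluster, Hoxb4 and Hoxa9, were compared directly in a ratio taken within each library. The ratio was log2 of the Hoxb4 count over the Hoxa9 count with 0.5 added to both, which needs no scaling between libraries. Other genes of the 2 clusters do not enter it. In P0 WT the ratio was -5.51, -5.85, -4.34 and -3.02, and in P0 ME it was -7.48, -4.70, -6.31 and -6.09. Of the ME libraries 1 lay within the WT range and 3 below it, and the difference of means was -1.46 (exact two-sided permutation test, p = 0.143, adjusted p = 0.19 over 4 comparisons). At P28 the ratio was -7.45, -5.46, -6.32 and -6.08 in WT and -8.05, -7.34, -7.21 and -8.28 in ME-E10.5, a difference of -1.39 (exact permutation p = 0.0857, adjusted p = 0.171). ME-P0, at -6.82, -6.44, -6.36 and -6.31, differed from WT by -0.16 (exact permutation p = 0.743, adjusted p = 0.743). RLT Vav Txp, at -5.31, -5.62, -4.90 and -5.68, was 0.95 above WT (exact permutation p = 0.0857, adjusted p = 0.171). None of the 4 differences passed the threshold, and 4 libraries against 4 allow no p under 0.0286. After adjustment over the 4 comparisons, a single difference at that smallest p would not pass. The lack of a pass therefore does not show that the ratios were alike.

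Summed over the cluster, Hoxb reads made up 3.03% ± 0.479 of all Hoxa and Hoxb reads in P28 WT, 1.27% ± 0.153 in ME-E10.5, 1.74% ± 0.207 in ME-P0 and 7.17% ± 0.904 in RLT Vav Txp (SD, n = 4). The ranges of these P28 groups did not meet: 2.37% to 3.52% in WT, 1.16% to 1.49% in ME-E10.5, 1.52% to 1.94% in ME-P0 and 5.84% to 7.79% in RLT Vav Txp. Both clusters entered these shares. The Hoxa sum was 259.8 ± 12.8 CPM in P28 WT, 401.5 ± 17.8 CPM in ME-E10.5, 367.3 ± 22.3 CPM in ME-P0 and 179.1 ± 15.2 CPM in RLT Vav Txp. The Hoxb sum was 8.07 ± 0.995, 5.18 ± 0.827, 6.52 ± 0.906 and 13.8 ± 1.87 CPM in the same order (SD, n = 4). The Hoxb sum of ME-P0, 5.34 to 7.52 CPM, overlapped that of P28 WT (6.77 to 9.20 CPM) and of ME-E10.5 (4.54 to 6.31 CPM). At P0 the share was 2.90% to 12.2% in WT and 1.69% to 3.25% in ME, ranges that overlapped. No test was run on these sums, which were formed over the chosen members.

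**Figure D4:**
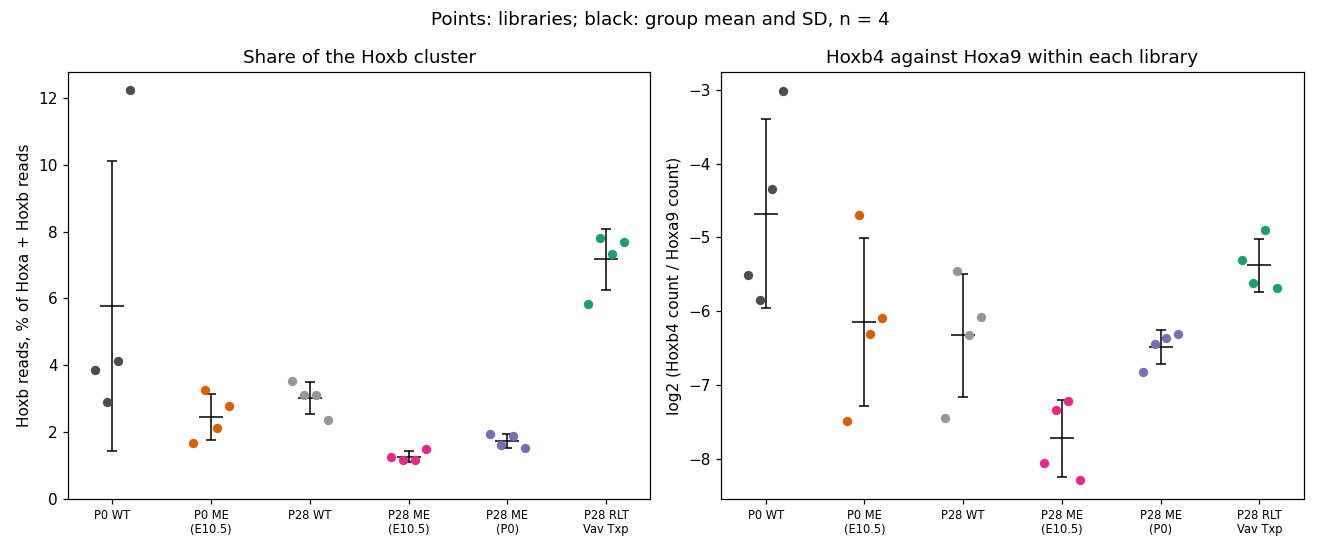
Left, Hoxb reads as a percentage of Hoxa plus Hoxb reads; right, log2 of the Hoxb4 count over the Hoxa9 count; points are libraries by group, black bars the mean and SD (n = 4). At P28 the shares lie at 1.16% to 1.49% in ME-E10.5 and at 5.84% to 7.79% in RLT Vav Txp, and P0 WT library 4 is the highest point of both panels.

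Members were called in 1 of the 9 comparisons, that of RLT Vav Txp with the other ME-E10.5 group of P28. Hoxb5 rose from 1.55 ± 0.463 to 5.13 ± 1.02 CPM (SD, n = 4; log2 fold change 1.73, standard error 0.61, edgeR adjusted p = 0.0484), and Hoxb6 rose from 0.179 ± 0.0970 to 1.99 ± 0.677 CPM (log2 fold change 3.47, standard error 1.12, edgeR adjusted p = 0.0328). Each was higher in 4 of 4 RLT Vav Txp libraries. These were 2 of 8 members, where 17.9% of all genes were called and 8.5% of all genes were called higher. Groups did not overlap for Hoxb4, Hoxb5 and Hoxb6, 3 of 8, against 25.7% of all genes in either direction. Hoxb4 had a log2 fold change of 1.11 (standard error 0.60, edgeR adjusted p = 0.212) and Hoxb2 of 0.63 (standard error 0.79, adjusted p = 0.637).

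In the same comparison Hoxa5, Hoxa7, Hoxa9 and Hoxa10 fell, 4 of 10 Hoxa genes, Hoxa9 from 178.1 ± 14.0 to 75.7 ± 12.0 CPM (SD, n = 4; log2 fold change -1.23, standard error 0.17, edgeR adjusted p = 4.28e-05). The median log2 fold change was 1.42 over the Hoxb genes, -0.84 over the Hoxa genes and 0.12 over all genes. Hoxb8 had a log2 fold change of 4.36 (standard error 1.89, edgeR adjusted p = 0.111), which was 1.33 without RLT Vav Txp library 4. DESeq2 called Hoxb8 too (adjusted p = 0.0358), with 22% of all genes.

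The calls of Hoxb5 and Hoxb6 are close to the threshold. Their adjusted p ranged over the alternatives from 0.000475 to 0.131 for Hoxb5 and from 0.000777 to 0.1 for Hoxb6, with positive log2 fold changes throughout. Leaving out any 1 of the 8 libraries ended the call of Hoxb5 (log2 fold change 1.61 to 1.91), and leaving out any but RLT Vav Txp library 1 ended that of Hoxb6 (3.22 to 3.75). Over all genes these fits called 2061 to 5212, the most without RLT Vav Txp library 1, against 4122 in the main test. Markers of other cells also differed between these groups. All 8 macrophage markers were called higher in RLT Vav Txp, none of them being at or under 3 counts throughout a group, and their sum was 728.5 to 3132 CPM against 47.7 to 75.2 CPM. Of the other marker lists, 2 of 4 genes of the sorted population were called lower. In that list mean levels in RLT Vav Txp against ME-E10.5 were 222.4 against 1147 CPM for Flt3 and 519.5 against 1104 CPM for Cd34. For Kit they were 804.9 against 1066 CPM, and for Ly6a 194.8 against 230.4 CPM. Called higher were 2 of 3 tested megakaryocyte genes (summed list 190.4 to 364.1 CPM against 22.8 to 46.3 CPM) and 4 of 6 mast cell and basophil genes. Of 8 stem cell genes 3 were called higher and 2 lower. Of 5 tested lymphoid genes 2 were called higher and 1 lower, and 1 of 6 neutrophil, 1 of 7 erythroid and 1 of 5 hepatocyte genes were called higher. The part of these cells in the Hoxb5 and Hoxb6 values was not tested.

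**Figure D5:**
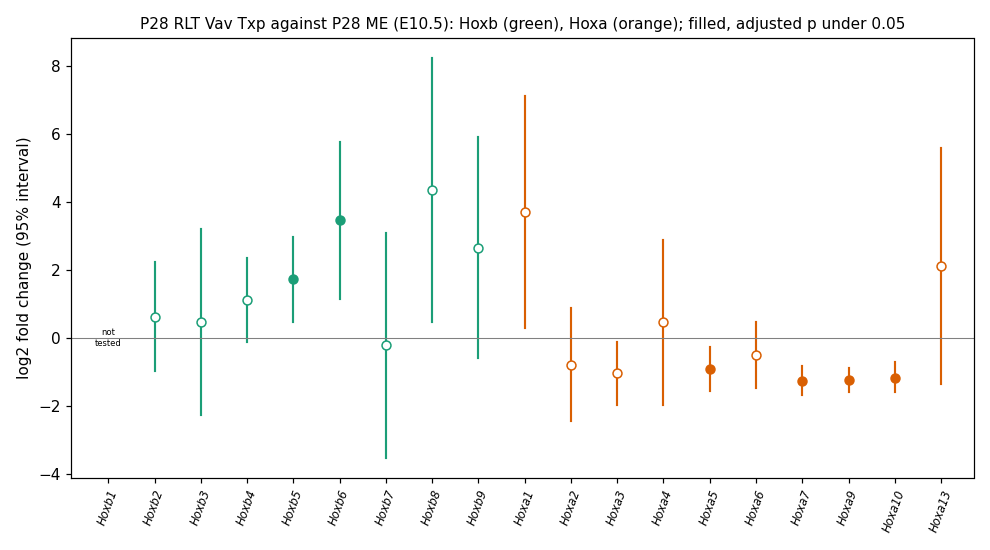
Log2 fold change (vertical axis) with its 95% interval of RLT Vav Txp against ME-E10.5 at P28 for the Hoxb genes (green) and Hoxa genes (orange); filled points have an edgeR adjusted p under 0.05. Hoxb5 (1.73) and Hoxb6 (3.47) are filled above 0, and Hoxa5, Hoxa7, Hoxa9 and Hoxa10 are filled below 0.

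The age at induction was compared at P28 by setting ME-P0 against ME-E10.5. By edgeR and DESeq2 0 of 8 Hoxb genes were called, with 0 at an unadjusted p under 0.05, where 0.0477% of all genes were called by edgeR. Hoxb4 averaged 1.91 ± 0.243 CPM after induction at P0 and 0.862 ± 0.249 CPM after induction at E10.5 (SD, n = 4), without overlap, as was true of 11.8% of all genes, with a log2 fold change of 1.15 (standard error 0.60, interval -0.09 to 2.38, edgeR adjusted p = 1). It was called with limma voom (1.13, adjusted p = 0.0368), where 10.1% of all genes were called, and with edgeR on these groups alone (1.20, adjusted p = 0.0332), where 6.35% were. Hoxb5 had a log2 fold change of 0.67 (standard error 0.59, edgeR adjusted p = 1).

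Between newborn liver and P28 marrow 0 of 8 members were called by edgeR in WT, where 7.68% of all genes were called. With limma voom 0 were called too, where 1286 of 23059 genes were. An unadjusted edgeR p under 0.05 was found for 2 members. These 2 were Hoxb4, with a log2 fold change of -1.29 (standard error 0.60, edgeR adjusted p = 0.203), and Hoxb6, with -2.72 (standard error 1.08, adjusted p = 0.132). DESeq2 called Hoxb6 (adjusted p = 0.049), with 11.8% of all genes. Without P0 WT library 4 the log2 fold changes were -0.31 for Hoxb4 and -1.14 for Hoxb6. Hoxb5 averaged 3.67 ± 1.02 CPM in P28 WT and 3.72 ± 4.51 CPM in P0 WT (SD, n = 4), but its 4 P28 libraries were all above the other 3 of P0, and without P0 WT library 4 its log2 fold change was 1.29 (edgeR adjusted p = 0.134). In the Hoxa cluster Hoxa2 and Hoxa9 were called higher at P28, 2 of 10. Markers of other cells moved with age as well. Called lower at P28 were 7 of 8 macrophage genes (summed list 131 to 1369 CPM at P0 and 75.6 to 105 CPM at P28), 6 of 7 erythroid genes (468.9 to 8826 and 302.9 to 395.3 CPM), 4 of 6 neutrophil, 3 of 6 mast cell and basophil, 3 of 5 hepatocyte and 4 of 5 tested lymphoid genes. The other tested lymphoid gene was called higher, and the summed lymphoid list was 31.3 to 117.1 CPM at P0 and 222.2 to 306.6 CPM at P28. Of 8 stem cell genes 2 were called higher and 1 lower, and 1 of 4 genes of the sorted population was called higher. The part of these lists in the Hoxb4 and Hoxb6 values was not tested.

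In ME-E10.5 the same pair stood out between P0 and P28, with 0 of 8 called by edgeR and by limma voom and 2 at an unadjusted p under 0.05, where 18.2% of all genes were called by edgeR. Hoxb4 had a log2 fold change of -1.51 (standard error 0.60, edgeR adjusted p = 0.0831), and the P28 libraries were all below those of P0, as 1 of 8 members against 25.4% of all genes that did not overlap in either direction. Hoxb6 had a log2 fold change of -2.86 (standard error 1.10, edgeR adjusted p = 0.0686), with overlapping groups. DESeq2 called both, with adjusted p-values of 0.0315 and 0.0174, and 23.2% of all genes. The value of Hoxb4 was -0.95 without P0 ME library 2, and without that library Hoxb6 was called (-3.26, adjusted p = 0.0491), where 11.4% of all genes were. Hoxb5 had a log2 fold change of -1.20 (standard error 0.60, edgeR adjusted p = 0.167). All 8 macrophage, 6 of 6 neutrophil, 5 of 5 hepatocyte and 5 of 7 erythroid genes were called lower at P28 in ME. So were 4 of 6 mast cell and basophil, 4 of 5 tested lymphoid and 2 of 3 tested megakaryocyte genes. Called higher were 1 lymphoid gene, 1 of 8 stem cell genes and 2 of 4 genes of the sorted population. The part of these lists here was not tested either.

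The ME effect at P28 minus that at P0 was tested as an interaction, and 0 of 8 members were called by edgeR, DESeq2 and limma voom, with 0 at an unadjusted p under 0.05, where 0.72% of all genes were called by edgeR. For Hoxb5 the difference of log2 fold changes was -1.19 (standard error 0.84, interval -2.91 to 0.54, edgeR adjusted p = 0.506). Without P0 WT library 4 it was -2.47, with an adjusted p of 0.0312, and 6.84% of all genes were called in that fit. For Hoxb4 the interaction was -0.21 (standard error 0.83, adjusted p = 0.935).

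Hox proteins bind DNA together with PBX, MEIS and PKNOX partners, and MLL acts with menin (Men1), LEDGF (Psip1) and the H3K79 methyltransferase Dot1l. Of 13 tested genes of that list, 5 were called lower (Pbx2, Pknox1, Men1, Psip1 and Dot1l) and 1 higher (Pbx3) in RLT Vav Txp against ME-E10.5, the comparison in which Hoxb5 and Hoxb6 rose and 17.9% of all genes were called. In ME-E10.5 against P28 WT, 3 of 13 were called, where 12.3% of all genes were, and Pknox1, Men1 and Psip1 were higher. Between P0 and P28 in ME-E10.5, Pknox1, Men1, Psip1 and Dot1l were called higher and Pknox2 and Kmt2a lower, 6 of 13 against 18.2% of all genes. Between the same ages in WT, Meis1 and Kmt2a were called higher, 2 of 13 against 7.68%, and in the interaction Psip1 was called higher and Kmt2a lower, 2 of 13 against 0.72%. Kmt2a was called higher in ME at P0 and after induction at P0; the human transgene holds part of the same gene, and reads of both were not told apart here. In RLT Vav Txp against WT, 1 of 13 was called, Pbx3, which was higher, where 4.12% of all genes were called.

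Within and beside the cluster, 6 of 12 listed genes in the table passed the filter. Of these 6, none was called in the ME comparisons with WT or in RLT Vav Txp against ME-E10.5, and the noncoding gene Gm53, beyond Hoxb9, was called lower at P28 than at P0 in ME-E10.5. Hoxb5os, antisense to Hoxb5, had 2.51, 6.18, 5.25 and 0.360 CPM in RLT Vav Txp, where library 4 did not follow the others, while Hoxb5 itself had 3.83 CPM in that library. Of the 7 tested genes of the Hoxc and Hoxd clusters, Hoxc5 was called in RLT Vav Txp against ME-E10.5, with 0.1315, 0.826, 0.557 and 4.58 CPM, where each ME-E10.5 library was at or under 3 counts. Library 4 carried most of that group's Hoxc5.

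Members did not vary as a block between replicates. After subtraction of group means from log2 CPM, Pearson's r over the 24 libraries was 0.50 between Hoxb4 and Hoxb5, and 0.07 without P0 WT library 4. It was 0.26 between Hoxb5 and Hoxb6 and 0.00 between Hoxb4 and Hoxb6, and -0.11 and -0.44 without that library. The lowest value among the 28 pairs was -0.59, between Hoxb2 and Hoxb4. These values describe the libraries and share their depth and scaling. Among 10249 genes whose mean log2 CPM reached 3, the 5 with the pattern most like Hoxb5, the most abundant member, were Rit1 (r = 0.84), Hcst (0.80), H2-DMb2 (0.78), Ginm1 (0.78) and Selenok (0.77) over the 24 libraries. After subtraction of group means they were Tmem176a (0.88), 1110051M20Rik (0.88), B2m (0.86), Tmem59 (0.85) and Rabac1 (0.84), and without P0 WT library 4 their r with Hoxb5 was 0.65 to 0.81.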

How the data were processed

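RNA-seq of 24 mouse LSK libraries gave raw read counts per gene, deposited by the authors as 1 table. Per the labels' protocols, the RNA came from an RNeasy Plus kit and the libraries from Clontech SMARTer chemistry. STAR 2.7.9a, Subread featureCounts 2.0.3 and GRCm38 are named in the submitters' processing notes; settings, strand and treatment of multi-mapping reads are not given in the sources used here. The table's 55774 rows hold 55487 gene IDs, and 287 repeats, identical in all counts, were dropped. Depth was 31233688 to 89774511 counts per library; since PCR copies are not independent molecules, a floor of 3 counts covers counting error only.

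Counts were fitted with edgeR 4.0.16 (TMM, filterByExpr with a minimum of 10 counts, robust quasi-likelihood test, 1 mean for each of 6 groups) in R 4.3.3. It gave 23059 genes tested in 9 comparisons, with Benjamini-Hochberg adjustment over all of them, and the procedure was tested on simulated data. Ratios used exact permutation tests. Alternatives were RLE factors, plain library totals, DESeq2 1.42.0, limma 3.58.1 voom with quality weights, no filter, a filter of 10 counts in 12 libraries, only the groups compared, a replicate block and the removal of each library in turn. Names and coordinates came from GENCODE M21. Figures were drawn with matplotlib 3.10.9 in Python 3.11.15. No 2 libraries were identical.

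Members, gene lists and tests were chosen with earlier results of these data known. All 9 members are accounted for. Genes of the Hoxa, other Hox, cofactor and locus lists are named where called in a comparison described or as the paralogue of a member, and Hoxb5 was matched to the 5 genes of highest Pearson's r. Library 4 of P0 WT, library 1 of both P0 groups and the posterior members' single high libraries were singled out after their values were seen. A cofactor gene and some homeobox sequences are not reported here.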

Additional observations from a re-analysis of the deposited data

Results flagged for a closer look

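Distances within groups of 4 were examined for 47 of the 54 combinations of member and group, leaving out 7 with at most 3 counts in each library, and for the ratio of Hoxb4 to Hoxa9 in 6 groups. In 12 of these 53, 1 library lay so far from the other 3 that its gap exceeded 0.829 of the group's range. That critical value is passed by chance in about 1 in 20 groups of normal values, a rate that cannot be assumed for counts near 0. Most came from the sparse posterior members. Hoxb7 was high in 1 library of P0 ME (0.5104 CPM), of ME-E10.5 (1.098 CPM) and of ME-P0 (0.1603 CPM). Hoxb8 was high in 1 library of P0 WT (2.772 CPM), of P28 WT (1.109 CPM) and of RLT Vav Txp (2.75 CPM). Hoxb9 was high in 1 library of P0 ME (0.5466 CPM), of ME-P0 (0.2274 CPM) and of RLT Vav Txp (1.69 CPM). Library 4 of RLT Vav Txp held the high values of Hoxb8 and Hoxb9 and also that of Hoxb1 (0.1438 CPM, 8 counts). Low values set apart Hoxb4 in 1 library of ME-P0 (1.55 CPM) and Hoxb6 in 1 library of P28 WT (0.01248 CPM, 1 count).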

How the results depend on the processing

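No member was called against WT in edgeR fits with other scalings or filters. None of the 4 ratios of Hoxb4 to Hoxa9 passed in any setting, but so few libraries left little room for a pass after adjustment. Some log2 fold changes turned sign, and not only those near 0: Hoxb4 in P0 ME against WT was -0.76 in the main test. In P0 ME against WT, Hoxb4 was 0.13 with limma voom and -1.36 to 0.20 without 1 library. Hoxb5 was 0.11 with plain totals, 0.91 with voom and -0.43 to 1.22 without 1 library. Without 1 library, Hoxb4 was -0.10 to 0.45 in ME-P0 and -0.12 to 0.43 in RLT Vav Txp against P28 WT, and the ratio in ME-P0 was -0.53 to 0.13. Calls among the 8 members moved as follows. In ME-E10.5 against WT voom, or a fit of the groups alone, gave 1 (Hoxb5), where 28.2% and 34% of all genes were called. In ME-P0 against ME-E10.5 each gave 1 (Hoxb4), where 10.1% and 6.35% were. In RLT Vav Txp against ME-E10.5 (2 in the main test), DESeq2 called 3, with Hoxb8 added, where 22% of all genes were called. Without the filter 1 was called, where 2893 of 41240 genes were. Without 1 library 0 to 1 was called, where 2061 of 24207 to 5212 of 24207 genes were. DESeq2 gave 1 (Hoxb6) between P0 and P28 in WT and 2 (Hoxb4 and Hoxb6) in ME, where 11.8% and 23.2% of all genes were called. In ME, leaving out 1 library gave 0 to 1, where 2687 of 24273 to 4735 of 24058 genes were called. For the interaction, leaving out 1 library gave 0 to 1 (Hoxb5, without P0 WT library 4, where 6.84% of all genes were called). The cause of these moves was not tested.

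Over all genes, calls also moved: 148 in P0 ME against WT were 5 to 797 over the alternatives, 2827 in ME-E10.5 were 893 to 6492, 362 in ME-P0 were 7 to 5196, and 4122 in RLT Vav Txp against ME-E10.5 were 2061 to 8053. Plain totals moved the all-gene median (log2) from -0.10 to -0.23 in ME-E10.5 against WT, and from -0.07 to 0.08 between P28 and P0 in WT.

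Replicate numbers did not pair the libraries across all groups: of 40 same-numbered pairs 13 had a correlation over 0.1, with a range of -0.39 to 0.66. Between P0 WT and P0 ME the 4 correlations were 0.66, 0.05, 0.37 and 0.46, 1 of them under 0.1. The numbers may thus pair libraries at P0, which the main test did not take into account. With the replicate block, in the 20 numbered libraries, Hoxb5 in P0 ME against WT had a log2 fold change of 0.21, and no call of a member changed. Depth limited the posterior members, with median counts of 2 to 5 per library.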
